A study of Mus musculus with 4 samples.

Results

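The genes described here are 10 members of the Nodal and bone morphogenetic protein (BMP) signalling pathways, of 25965 genes listed in the expression table. They are a fixed list of names with no threshold on their values, but the list was drawn up when earlier results of these data were known. The Nodal side holds 6 genes: the ligands Nodal and Gdf3, the co-receptor Tdgf1, the inhibitors Lefty1 and Lefty2, and the inhibitory Smad gene Smad7. The BMP side holds 4 genes: the ligand Bmp4 and its target genes Id1, Id2 and Id3. All 10 passed the filter on low values (log2 CPM of 0 or more on average), as did 13264 genes in all. CPM gives the reads of a gene scaled to the total of its library.

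RNA-seq had been performed on 4 libraries of female FVB/CAST F1 mouse embryonic stem cells (mESCs), 1 for each group. The Day0 library came from undifferentiated mESCs kept in 2i and LIF, a medium that holds mESCs in the naive state. The other 3 came from day 6 of differentiation in DME HiHi, a medium that contains serum. These cells had received a hairpin RNA by retrovirus on day 2 and puromycin from day 3, and carried either the non-silencing control (Nons) or 1 of 2 hairpins against Smarca4, named Smarca4.4 and Smarca4.6. Smarca4 encodes an ATPase of the BAF chromatin remodelling complex, which the study knocked down to ask about X chromosome inactivation. Medium, virus and puromycin differed between Day0 and Nons together with the day, so their parts in a difference between these libraries cannot be told apart. RNA came from the whole culture, so each value is an average over its cells. A genotype field of the labels calls the day 6 libraries, Nons included, a Smarcc knockdown; groups were taken from the titles.

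The Day0 library held 18599398 reads and the day 6 libraries held 45759786 (Nons), 47143740 (Smarca4.4) and 36495574 (Smarca4.6). Since every group is a single library, no difference could be set against replicates and no p-values are given. Each difference has an exact (Clopper-Pearson) 95% counting interval, which covers counting error only and compares 2 libraries, not 2 conditions. Smarca4 itself was at 7.93 log2 CPM at Day0, 7.84 with Nons, 7.04 with Smarca4.4 and 7.44 with Smarca4.6. It was thus at 57.3% of Nons with Smarca4.4 and at 75.8% with Smarca4.6. The pluripotency factors Pou5f1 and Nanog were at 9.50 and 9.96 log2 CPM in the Day0 library, as its mESC label requires. Pou5f1 was higher still in Nons, so its level does not tell Day0 from day 6. The labels give the cells as female, yet the Y-linked gene Ddx3y had 0 reads at Day0 and 83, 96 and 107 reads in the Nons, Smarca4.4 and Smarca4.6 libraries (Uty had 0, 10, 33 and 38 and Eif2s3y 0, 13, 27 and 20 in the same order). Kdm5d, also Y-linked, had 0 reads in all 4. The source of these reads was not tested.

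Nodal and BMP4 are secreted ligands of the TGF-beta family. Nodal binds activin receptors together with the co-receptor encoded by Tdgf1, and the signal passes through Smad2 and Smad3, which switch on target genes that include Nodal itself and its inhibitors Lefty1 and Lefty2. BMP4 signals through other receptors to Smad1 and Smad5, whose best known direct targets are the Id genes. Id proteins bind E proteins, a class of transcription factors, and keep them off DNA. In the early mouse embryo Nodal acts in the epiblast and BMP4 comes first from the neighbouring extraembryonic ectoderm.

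The hairpin guides are shown because 2 of the comparisons turn on them, and an exact match in a member would bear on its values. The strand that is loaded to find the target is given 5′ to 3′, with its seed (bases 2 to 8) in capitals:
Nons: cTTACTCTcgcccaagcgagag
Smarca4.4: tTTATTACtgtctgactccagt
Smarca4.6: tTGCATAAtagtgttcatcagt
The seeds of the 2 Smarca4 guides differ. The Smarca4.4 guide had its exact site at chr9:21703327-21703348 (GRCm38, plus strand), in the 3′ UTR within exon 34 of Smarca4, and the Smarca4.6 guide at chr9:21670504-21670525 (plus strand), in the coding part of exon 22. Neither had an exact site in a transcript of another gene, hence in 0 of the 10 members, and the Nons guide had none in any transcript. Matches of the seed alone were not searched.

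The 10 genes lie on 9 chromosomes, and only Lefty1 and Lefty2 are near each other. In the GRCm38 coordinates of the deposited table, Nodal is at chr10:61417972-61425338, Gdf3 at chr6:122605403-122610087, Tdgf1 at chr9:110939610-110946158 and Smad7 at chr18:75367529-75395935. Lefty2 is at chr1:180893108-180899103 and Lefty1 at chr1:180935022-180938400. On the BMP side, Bmp4 is at chr14:46383520-46390669, Id1 at chr2:152736251-152737410, Id2 at chr12:25093801-25096092 and Id3 at chr4:136143497-136145755. Counts were taken over exons.

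Some of these genes share sequence with another gene, so reads could be split between copies. Of all 75-base stretches of the transcripts of Lefty1, 11.7% also occur in Lefty2, and 7.77% of those of Lefty2 occur in Lefty1. For Tdgf1, 5.99% occur in its pseudogene Tdgf1-ps1. Of the exon bases of Bmp4, 89 lie under Gm15217, a gene on the opposite strand, which had between 0 and 3 reads in each library. Of the stretches of Bmp4, 0.668% also occur in Gm15217. The other 6 genes shared no such stretch with another gene.

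All 6 Nodal-side genes were lower in the Nons library at day 6 than at Day0, as were 48.6% of all genes kept, and all 4 BMP-side genes were higher, as were 51.4%. Lefty2 was 7.46-fold lower and Id1 was 85.5-fold higher. In bulk RNA, fewer cells of a type and less RNA per cell cannot be told apart.

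Nodal, the ligand, was at 5.71 log2 CPM at Day0, 4.68 with Nons, 4.78 with Smarca4.4 and 4.90 with Smarca4.6. The 3 day 6 libraries were all below Day0. From Day0 to Nons the difference was -1.03 on the log2 scale (95% counting interval -1.15 to -0.90), or 2.04-fold lower.

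Gdf3 encodes a related ligand that also needs the co-receptor. Its level was 6.27 log2 CPM at Day0, 3.90 with Nons, 3.98 with Smarca4.4 and 4.04 with Smarca4.6. It was 5.17-fold lower in Nons than at Day0 (log2 difference -2.37, interval -2.50 to -2.24), a larger difference than that of Nodal by intervals that do not overlap.

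Tdgf1 encodes the co-receptor also known as Cripto. Its level was 9.01 log2 CPM at Day0, 8.63 with Nons, 8.59 with Smarca4.4 and 8.88 with Smarca4.6. The Nons library was at 76.7% of Day0 (log2 difference -0.38, interval -0.42 to -0.35), the smallest difference among the 10 genes, and its interval did not overlap those of Nodal and Gdf3.

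The Lefty genes encode secreted inhibitors of Nodal and are themselves induced by it. Lefty1 was at 5.93 log2 CPM at Day0, 3.76 with Nons, 3.80 with Smarca4.4 and 3.66 with Smarca4.6. Lefty2 was at 7.81, 4.91, 5.15 and 5.42 log2 CPM in the same order. From Day0 to Nons, Lefty1 was 4.48-fold lower (log2 difference -2.17, interval -2.31 to -2.02) and Lefty2 was 7.46-fold lower (-2.90, interval -2.99 to -2.81). In reads, Lefty2 went from 4167 of the shallow Day0 library to 1374 of the deeper Nons library.

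Smad7 encodes an inhibitory Smad that several ligands of the TGF-beta family induce. Its level was 5.36 log2 CPM at Day0, 4.79 with Nons, 4.96 with Smarca4.4 and 5.06 with Smarca4.6. The log2 difference from Day0 to Nons was -0.58 (interval -0.71 to -0.45), or 1.49-fold lower.

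Bmp4, the ligand of the BMP side, had 47 reads at Day0, 369 with Nons, 291 with Smarca4.4 and 161 with Smarca4.6. These reads correspond to 1.34, 3.01, 2.63 and 2.14 log2 CPM. It was the lowest BMP-side gene at day 6, and was 3.19-fold higher in Nons than at Day0 (log2 difference 1.67, interval 1.23 to 2.14).

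Id1 had 16 reads at Day0 and 3367, 3419 and 2617 reads in the Nons, Smarca4.4 and Smarca4.6 libraries, which is -0.22, 6.20, 6.18 and 6.16 log2 CPM. The log2 difference of 6.42 (interval 5.72 to 7.23) placed it at rank 125 from the highest of the 13264 genes. Its Day0 level was above the floor of that library, 0.161 CPM for 3 reads.

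Id2 had 62 reads at Day0 and 5067, 4321 and 2569 reads in the day 6 libraries, or 1.74, 6.79, 6.52 and 6.14 log2 CPM. It was 33.2-fold higher in Nons than at Day0 (log2 difference 5.05, interval 4.69 to 5.44), at rank 269 from the highest.

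Id3 stood apart from the other Id genes. It had 68 reads at Day0 and 617, 947 and 752 reads at day 6, or 1.87, 3.75, 4.33 and 4.36 log2 CPM. Its difference from Day0 to Nons, 1.88 (interval 1.52 to 2.27), was 3.69-fold and close to that of Bmp4, and it lay below the intervals of Id1 and Id2.

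**Figure D1:**
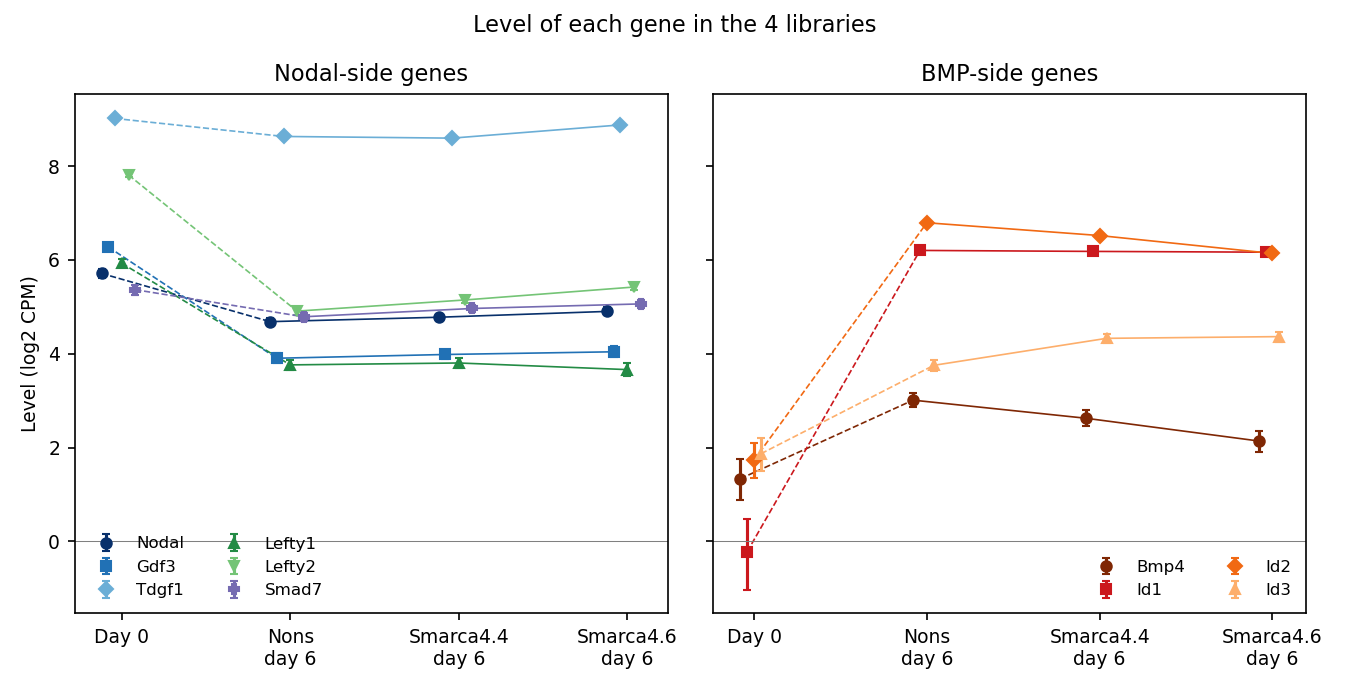
Level of each gene in log2 CPM (y axis) in the 4 libraries (x axis), with the Nodal side on the left and the BMP side on the right; points are single libraries, bars are 95% counting intervals, and lines only join the points of a gene. Nodal-side genes sit higher at Day0, BMP-side genes sit higher at day 6, and the day 6 libraries lie close together except for Bmp4, Id2, Id3 and Lefty2.

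By size, 4 of the 4 BMP-side genes were at least 2-fold higher in Nons than at Day0, where 19.6% of all genes kept were. On the Nodal side 4 of the 6 were at least 2-fold lower, against 12.3% of all genes, with Tdgf1 and Smad7 the exceptions. Nodal was at this threshold, since its interval included 2-fold. For all 10 genes the counting interval left out 0, as it did for 82.9% of all genes, so this count says little about the members.

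The median difference of the Nodal side was -1.60 on the log2 scale, that of the BMP side was 3.47, and that of all genes was 0.031. The medians of the 2 sides were 5.06 apart. With 6 and 4 genes and 1 library in each group these medians are a description.

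Marker genes for cell types moved between the same libraries. The summed level of 8 markers of pluripotent cells, all of which passed the filter, was 4389 CPM at Day0. It was 1094, 857 and 1127 CPM in the Nons, Smarca4.4 and Smarca4.6 libraries. Pou5f1 itself was at 9.50 log2 CPM at Day0 and 9.84 in Nons, and carried the Nons sum. The other 7 were at least 2-fold lower in Nons than at Day0, where 12.3% of all genes were. The median difference over the 8 was -4.39. The 4 markers of primed or epiblast cells summed to 122 CPM at Day0 and 879, 1008 and 1217 CPM at day 6. The 8 smooth muscle and stromal markers, of which 6 passed the filter, summed to 3.49 CPM at Day0, with Acta2, Myl9, Col3a1 and Postn at 0 reads, and to 1136, 859 and 738 CPM at day 6. Of 6 trophectoderm markers 4 passed, with sums of 91.7, 1541, 1700 and 1334 CPM, carried by the keratins Krt8 and Krt18, while the defining gene Cdx2 had between 10 and 26 reads. Endoderm markers (3 of 6 passed) summed to 7.90, 26.6, 32.4 and 32.3 CPM, with Ttr at 0 reads in all libraries. Neural markers (4 of 5) summed to 170, 451, 446 and 486 CPM. From Day0 to Nons the neural markers that passed differed by between -0.94 and 3.67 on the log2 scale, so they lay in both directions. Endothelial and blood markers (2 of 5) summed to 228, 14.3, 13.2 and 12.1 CPM, with Hbb-bh1 at 0 reads throughout. The 2 that passed went in opposite directions from Day0 to Nons, by -4.41 and 5.82, so this sum does not describe both. The part of these cell types in the differences of Nodal, the Lefty genes, Bmp4 and the Id genes was not tested.

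**Figure D2:**
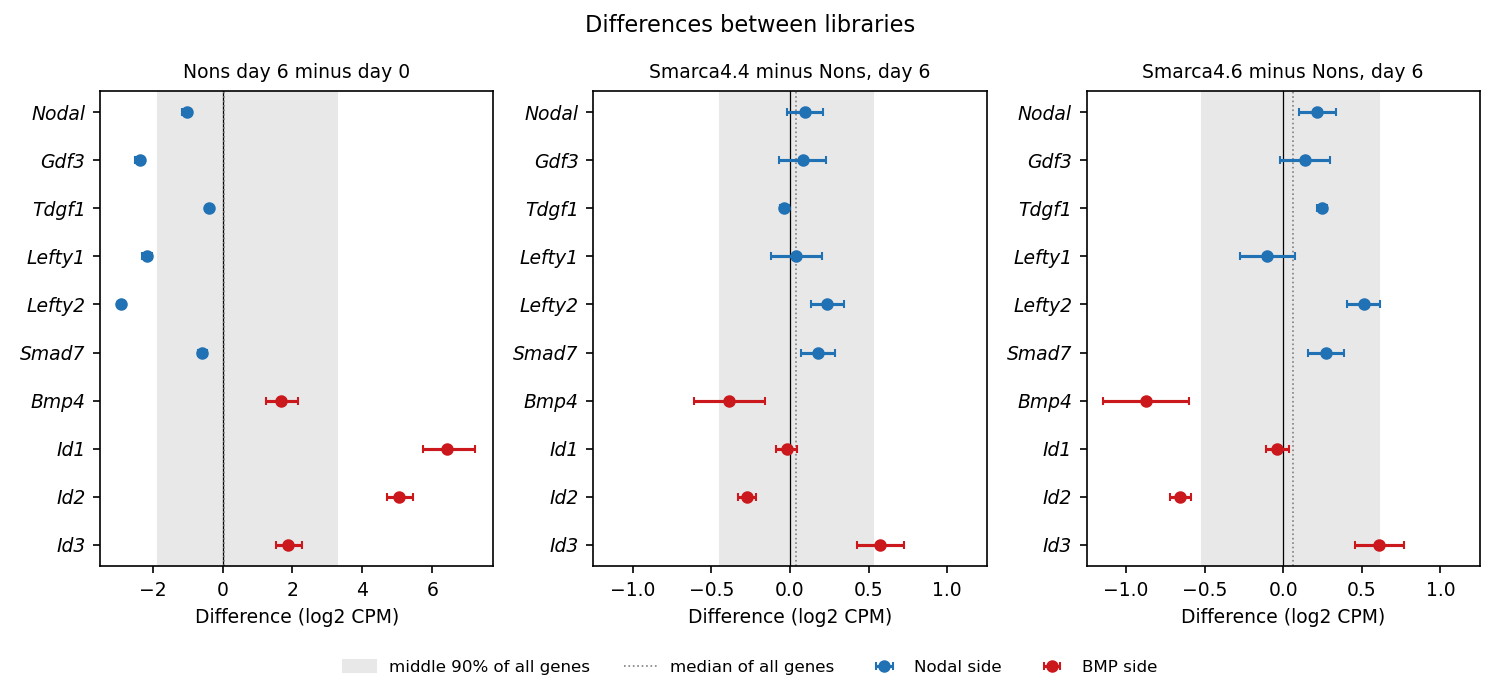
Difference in log2 CPM (x axis) for each gene (y axis) in 3 comparisons, one a panel, with 95% counting intervals; blue is the Nodal side, red the BMP side, and the grey band spans the middle 90% of all genes kept. From Day0 to Nons the sides part, with medians of -1.60 and 3.47; the x axes of the hairpin panels are narrower, and there Bmp4, Id2 and Id3 lie farthest out.

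The genes can be compared with each other only per length, as CPM per kilobase of exon (RPKM). At Day0 the order began with Tdgf1 at 197 RPKM, followed by Lefty2 at 85.8, Lefty1 at 34.6, Gdf3 at 31.9, Nodal at 25.0 and Smad7 at 9.11 RPKM. Lefty1 and Gdf3 did not differ beyond their counting intervals. The BMP-side genes came last, with Id3 at 2.04, Id2 at 1.37, Bmp4 at 1.12 and Id1 at 0.742 RPKM, and no neighbours among them differed beyond their intervals.

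In Nons the order was another. Tdgf1 still led at 151 RPKM, but Id1 at 63.4 and Id2 at 45.4 RPKM now came next, ahead of Nodal at 12.3 and Lefty2 at 11.5 RPKM. Below them were Lefty1 at 7.72, Id3 at 7.53, Gdf3 at 6.18, Smad7 at 6.11 and Bmp4 at 3.59 RPKM. The neighbours Nodal and Lefty2, Lefty1 and Id3, and Gdf3 and Smad7 did not differ beyond their intervals. Id1 therefore went from the lowest of the 10 to the second highest.

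Smarca4.4 and Smarca4.6 had the first 3 genes of Nons. In Smarca4.4 these were Tdgf1 at 147, Id1 at 62.5 and Id2 at 37.6 RPKM, and in Smarca4.6 they were at 179, 61.8 and 28.9 RPKM. Lefty2 came next in both, at 13.6 and 16.4 RPKM, with Nodal below it at 13.1 and 14.3 RPKM, and only in Smarca4.6 did the intervals of these neighbours not overlap. Id3 followed, at 11.2 and 11.5 RPKM, but this place turned on the length used. Per length of the longest transcript Id3 was at 15.7 RPKM in Smarca4.4, above Lefty2 at 14.3 and Nodal at 13.1, and in Smarca4.6 at 16.1 RPKM, above Nodal at 14.3 and below Lefty2 at 17.3. Bmp4 was last, at 2.75 and 1.96 RPKM, after Lefty1, Smad7 and Gdf3, which lay between 6.53 and 7.94 RPKM.

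**Figure D3:**
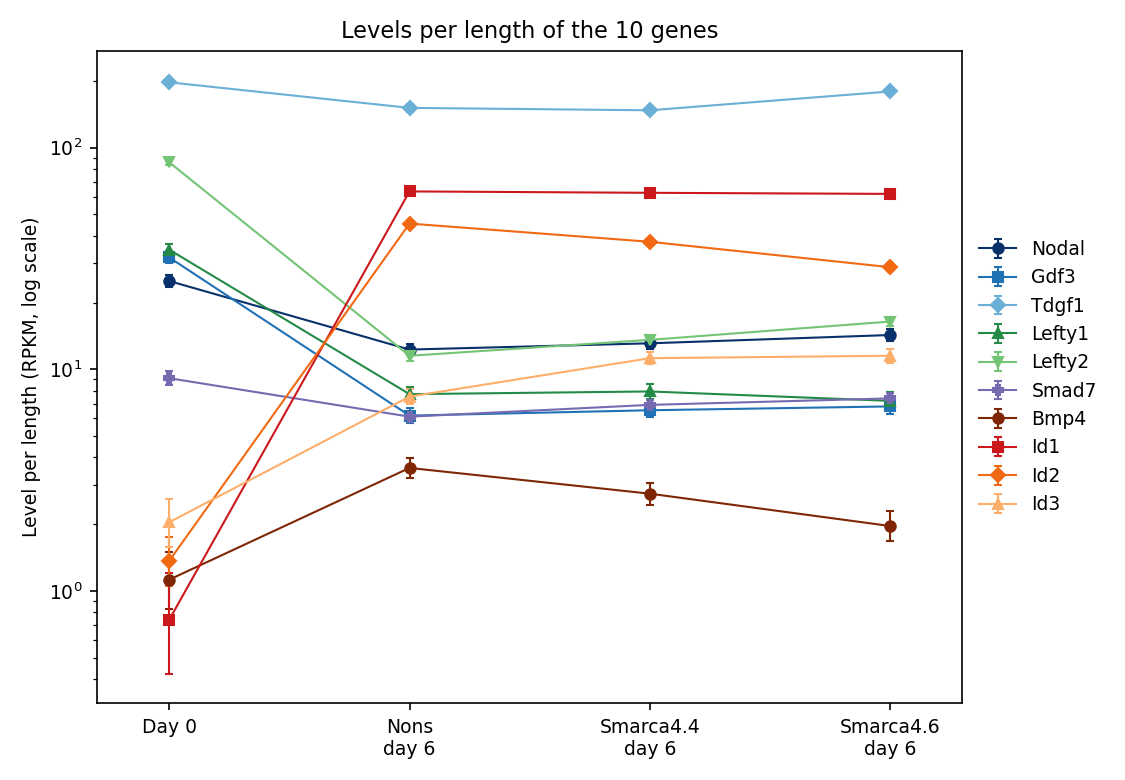
Level per length of the 10 genes (y axis, RPKM, log scale) in each library (x axis), with 95% counting intervals; lines only join the points of a gene. Tdgf1 is highest in every library, and Id1 goes from 0.742 at Day0 to 63.4 in Nons.

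With Smarca4.4, 0 of the 10 genes differed from Nons by 1.5-fold or more, where 6.40% of all genes did. Id3 was 1.49-fold higher (log2 difference 0.58, interval 0.43 to 0.72) and Bmp4 was at 76.5% of Nons (-0.39, interval -0.61 to -0.16). Id2 was at 82.8% of Nons (-0.27, interval -0.33 to -0.21), whereas Id1 was at 98.6% (-0.02, interval -0.09 to 0.05). The 3 Id genes thus did not differ from Nons in 1 direction.

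On the Nodal side, Lefty2 was 1.18-fold higher with Smarca4.4 (log2 difference 0.24, interval 0.13 to 0.34) and Smad7 was 1.13-fold higher (0.18, interval 0.07 to 0.29). Nodal, Gdf3 and Lefty1 had differences of 0.09, 0.08 and 0.04, each with an interval that included 0. Tdgf1 differed by -0.036 (interval -0.066 to -0.0063), where its high read number makes the counting interval narrow. The interval left out 0 for 6 of the 10 genes and for 58.7% of all genes. The median was 0.087 for the Nodal side, -0.15 for the BMP side and 0.038 for all genes, and that of the BMP side was -0.021 without Bmp4, which a stricter filter (mean log2 CPM of 3) removes.

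With Smarca4.6, 3 of the 10 genes differed from Nons by at least 1.5-fold, where 9.51% of all genes did. Id3 was the 1 higher gene, where 5.68% of all genes were higher, and Bmp4 and Id2 were the 2 lower genes, where 3.83% were lower. Bmp4, at 54.7% of Nons (log2 difference -0.87, interval -1.15 to -0.60), and Id2, at 63.6% (-0.65, interval -0.72 to -0.58), were each lower by more than their intervals, and Id3 was 1.53-fold higher (0.61, interval 0.46 to 0.77). Id1 was at 97.5% of Nons (-0.04, interval -0.11 to 0.04). None of the 10 reached 2-fold, which 1.82% of all genes did. The lower bound of Id3 and the upper bound of Id2 were inside 1.5-fold, and Id3 left it when the differences were scaled in another way (0.55 centred on the median of autosomal genes, 0.54 with size factors, 0.58 as log2(CPM + 1)).

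Of the 6 Nodal-side genes 5 were higher in Smarca4.6 than in Nons, where 58.9% of all genes were. Lefty2 was 1.43-fold higher (log2 difference 0.51, interval 0.41 to 0.62), Smad7 1.21-fold (0.27, interval 0.16 to 0.39), Tdgf1 1.19-fold (0.25, interval 0.22 to 0.28) and Nodal 1.16-fold (0.22, interval 0.10 to 0.34). Gdf3 and Lefty1 had differences of 0.14 and -0.10 with intervals that included 0. When the reads of Lefty1 and Lefty2 were summed, because they share sequence, the pair was higher by 0.35, so the negative sign of Lefty1 was not kept. The interval left out 0 for 7 of the 10 genes and for 64.0% of all genes. The median was 0.23 for the Nodal side, -0.35 for the BMP side (-0.037 without Bmp4, under the stricter filter) and 0.064 for all genes.

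Both hairpin comparisons use the same Nons library, so the values of the genes in them are not independent. The 2 hairpin libraries were therefore also set against each other. Bmp4 was 1.40-fold higher in Smarca4.4 than in Smarca4.6 (log2 difference 0.48, interval 0.20 to 0.77) and Id2 was at 130.2% of its Smarca4.6 level (0.38, interval 0.31 to 0.45). Tdgf1 and Lefty2 were lower, at 82.3% and 82.7% of Smarca4.6 (differences of -0.28 and -0.27), and Nodal was at 91.7% (-0.12, interval -0.24 to -0.0067). Id1 and Id3 differed by 0.02 and -0.04, with intervals that included 0. No gene of the 10 reached 1.5-fold, which 4.48% of all genes did, and the interval left out 0 for 5 of the 10 and for 52.8% of all genes. Smarca4 itself was lower in Smarca4.4 than in Smarca4.6, at 75.6%. Bmp4, Id2, Lefty2 and Nodal were farther from Nons with Smarca4.6, while the 2 differences of Tdgf1 from Nons had opposite signs. For Lefty1, Gdf3, Smad7, Id1 and Id3 the interval between the hairpins included 0. The part of the Smarca4 level in these differences was not tested.

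Among the marker lists, the smooth muscle and stromal sum went down with Bmp4 and Id2 across Nons, Smarca4.4 and Smarca4.6 (1136, 859 and 738 CPM). Acta2, smooth muscle actin, differed from Nons by -1.03 and -1.83 and Tagln, another contractile gene, by -0.42 and -0.66, while Myl9 differed by -0.03 and -0.06. The median over the 6 markers that passed was -0.19 with Smarca4.4, where Col1a1 differed by 0.11, and -0.32 with Smarca4.6. The endothelial and blood sum was lower in the same order (14.3, 13.2 and 12.1 CPM). Its 2 markers that passed differed from Nons in opposite directions (-0.35 and 0.49 with Smarca4.4, -0.77 and 0.58 with Smarca4.6). The primed or epiblast sum was higher in the order of Lefty2 and Nodal (879, 1008 and 1217 CPM). Of its 4 markers, Otx2 differed from Nons by -0.42 with Smarca4.4 and by -0.35 with Smarca4.6. The medians of that list were 0.21 and 0.38 in the same order. Other marker lists also differed from Nons. With Smarca4.4 and Smarca4.6 the medians were 0.41 and 0.73 for endoderm and 0.49 and 0.17 for trophectoderm. They were 0.15 and 0.30 for neural markers and -0.092 and -0.072 for pluripotent cells. The trophectoderm markers ranged from -0.0071 to 1.59 with Smarca4.4 and from -0.42 to 0.77 with Smarca4.6. The part of any of these cell types in the differences of Bmp4, Id2, Lefty2 and Nodal was not tested.

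The other genes of the pathways came from 9 lists, and each is given by its counts. Beside them, 19.6% of all genes were at least 2-fold higher and 12.3% at least 2-fold lower in Nons than at Day0, and 6.40% and 9.51% differed from Nons by 1.5-fold or more with Smarca4.4 and Smarca4.6. The filter takes a mean in which 3 of the 4 libraries are from day 6, so it keeps low genes that are high at day 6 more readily than genes that are high at Day0, and the counts of higher and lower genes in a list depend on it. Of 11 genes for Nodal and activin ligands, their processing and antagonists, 6 passed the filter. In Nons 1 was at least 2-fold higher than at Day0 and 2 were lower, with a median of 0.38. Pcsk6, a convertase that cleaves the Nodal precursor, was the farthest, at 7.28 log2 CPM at Day0 and 2.74 in Nons (difference -4.55, interval -4.72 to -4.37). Inhbb, a subunit of activin, differed by -3.30 and Fst, which binds activin, by 2.50. With Smarca4.4 Inhbb was higher than Nons by 1.24 (28 and 68 reads), and with Smarca4.6 by 0.33 with an interval that included 0. Fst differed from Nons by -0.61 with Smarca4.4 and by 0.21 with Smarca4.6. Pcsk6 differed by 0.29 with Smarca4.4 and by 0.62 with Smarca4.6. By count, 1 of the 6 was at least 1.5-fold higher and 1 lower with Smarca4.4. The counts with Smarca4.6 were 1 higher and 0 lower.

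Of 14 receptors and signal transducers of Nodal and activin, 13 passed. In Nons 2 were at least 2-fold higher than at Day0 and 0 lower, with a median of 0.34. These were Foxh1, the DNA-binding partner of Smad2 (4.53 and 5.80 log2 CPM, difference 1.27), and Skil, a repressor of Smad signalling (6.87 and 8.09 log2 CPM, difference 1.22). With each hairpin all 13 were within 1.5-fold of Nons, as were most genes.

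Other target genes of Nodal and activin lay in both directions. Of 10 listed, 6 passed, and in Nons 4 were at least 2-fold higher than at Day0 and 1 lower, with a median of 1.39. Eomes, a transcription factor of early mesendoderm, was at 2.93 log2 CPM at Day0 and 5.08 in Nons (difference 2.15), Fgf8 differed by 2.63 and Otx2, also an epiblast marker, by 1.54. T (brachyury), a mesoderm factor, had 109 reads at Day0, 18 with Nons, 12 with Smarca4.4 and 91 with Smarca4.6. It was thus lower in Nons than at Day0 by 3.90 on the log2 scale, and higher than Nons by 2.66 (interval 1.92 to 3.48) with Smarca4.6. Fgf8 had 5, 76, 45 and 190 reads in the same order, a difference from Nons of 1.65 (interval 1.26 to 2.05) with Smarca4.6. With Smarca4.4 the differences of T and Fgf8 were -0.63 and -0.80, so the 2 hairpins differed in sign for these genes, which were the 2 of the 6 past 1.5-fold with each hairpin. The interval of T with Smarca4.4 included 0. Of the 4 targets that did not pass, Gsc had 34 reads at Day0 and 10 in Nons (difference -3.06, interval -4.25 to -2.01), and Mixl1 had 15 and 13 (-1.51, interval -2.70 to -0.33). With Smarca4.6 Mixl1 had 42 reads and was higher than Nons by 2.02 (interval 1.09 to 3.04). With Smarca4.4 it had 26 reads, a difference of 0.96 (interval -0.06 to 2.04). The intervals of Gsc included 0 with both hairpins.

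Of 11 BMP ligands other than Bmp4, 4 passed. In Nons 1 was at least 2-fold higher than at Day0 and 2 were lower, with a median of -0.92, so of these 4 only Bmp8b was, like Bmp4, at least 2-fold higher (2.70 and 4.15 log2 CPM, difference 1.44). Bmp7 was at 3.95 log2 CPM at Day0 and 1.92 in Nons (difference -2.03), and Bmp6 differed by -1.60. Bmp7 was also lower than Nons with Smarca4.4 (-0.59, interval -0.95 to -0.25) and with Smarca4.6 (-0.98, interval -1.40 to -0.57). By count, 2 of the 4 were at least 1.5-fold lower with Smarca4.4 and 1 with Smarca4.6, and 0 were higher with either. The other lower gene with Smarca4.4 was Bmp8a (-0.77, interval -1.35 to -0.21). Of the ligands that did not pass, Bmp2 had 28 reads in Nons and 62 with Smarca4.4 (difference 1.10, interval 0.44 to 1.80). With Smarca4.6 it had 31 reads, and the interval included 0. Gdf6, which also did not pass, had 0 reads at Day0 and 48 in Nons. It was at least 6.50-fold higher against the 3-read floor of the Day0 library.

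Of 12 BMP receptors and signal transducers, 10 passed, with 2 at least 2-fold higher and 1 lower in Nons than at Day0 and a median of -0.094. Hfe2, a co-receptor, differed by 2.70, on 7 and 112 reads, and Acvrl1, a type I receptor, by 1.12. Eng, a co-receptor of endothelium, differed by -1.76. Rgma, another co-receptor, was below Nons with both hairpins, by -0.68 with Smarca4.4 and by -0.89 with Smarca4.6, and the remaining 9 were within 1.5-fold with each hairpin. Smad9, a transducer that did not pass, had 46 reads at Day0 and 3 in Nons (difference -5.24, interval -7.57 to -3.60), and Bmpr1b, a receptor that did not pass, had 1 and 90.

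Of 13 BMP antagonists and inhibitors, 7 passed, with 2 at least 2-fold higher and 0 lower in Nons than at Day0 and a median of 0.25. Noggin (Nog), which binds BMP4, had 0 reads at Day0 and 274 in Nons, and was at least 37.1-fold higher against the 3-read floor of the Day0 library. Nbl1 had 15 and 358 reads (difference 3.28, interval 2.54 to 4.13). With each hairpin all 7 were within 1.5-fold of Nons, again as most genes were.

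Of 11 BMP target genes other than Id1, Id2 and Id3, 9 passed. In Nons 3 were at least 2-fold higher than at Day0 and 1 lower, with a median of -0.16. The 3 were the transcription factors Msx1 (10 and 594 reads, difference 4.59), Tbx20 (19 and 644 reads, 3.78) and Gata3 (9 and 242 reads, 3.45). Id4, the remaining Id gene, went the other way, with 3.07 log2 CPM at Day0 and 0.46 in Nons (difference -2.61, interval -3.05 to -2.18). Gata2 was higher than Nons with both hairpins (0.97 and 0.82 for Smarca4.4 and Smarca4.6), and Tbx20 was lower (-0.79 and -1.09). By count, 1 of the 9 was at least 1.5-fold higher and 1 lower with Smarca4.4 (median -0.090), and 1 was higher and 3 were lower with Smarca4.6 (median -0.40). The other 2 lower with Smarca4.6 were Gata3 (-0.84, interval -1.18 to -0.50) and Id4 (-0.74, interval -1.42 to -0.095).

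The genes of E proteins, the binding partners of the Id proteins, were Tcf3, Tcf4 and Tcf12. All 3 passed the filter and were within 1.5-fold in each of the 4 comparisons, with medians of 0.070 from Day0 to Nons, -0.15 with Smarca4.4 and 0.17 with Smarca4.6. Id1 and Id2 thus differed between Day0 and Nons by far more than the transcripts of their partners did.

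Of 13 ligands, receptors and targets of TGF-beta, 12 passed, with 7 at least 2-fold higher and 2 lower in Nons than at Day0 and a median of 1.23. The ligand genes Tgfb1, Tgfb2 and Tgfb3 had 1, 9 and 3 reads at Day0 and 163, 710 and 61 reads in Nons. The log2 difference of Tgfb2 was 5.0 (interval 4.07 to 6.14), and that of Tgfb1, which rests on 1 read, was 6.05 with an interval from 3.55 to 11.4. Tgfbi and Tgfbr3 differed by -2.90 and -2.13. With Smarca4.4 and Smarca4.6 Tgfb3 was higher than Nons by 0.81 and 0.75, and Tgfbi by 0.70 and 1.28. By count, 3 of the 12 were at least 1.5-fold higher with each hairpin, and 0 and 1 were lower.

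**Figure D4:**
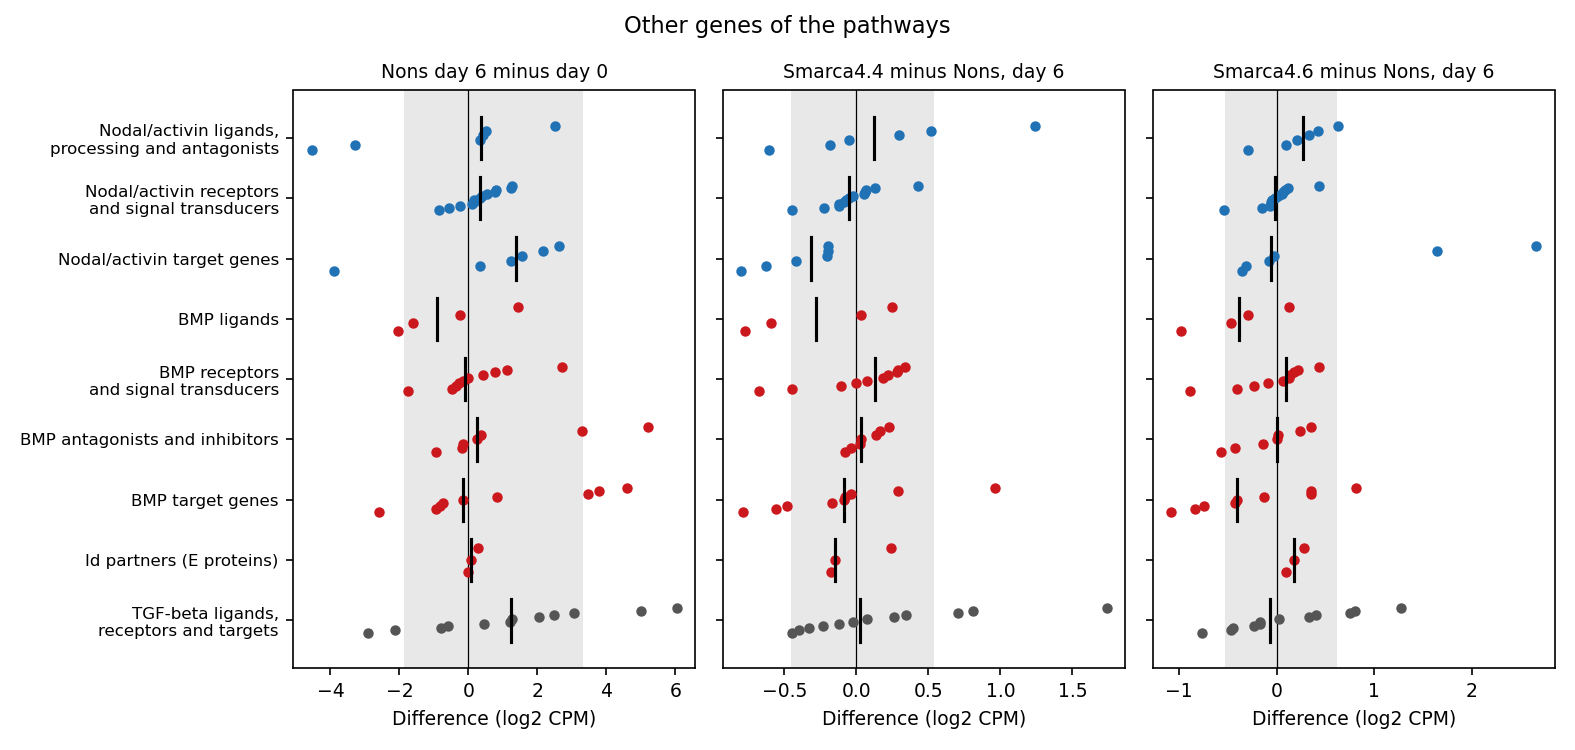
Differences in log2 CPM (x axis) of the genes of 9 pathway lists that passed the filter (y axis, one point a gene, black bars are list medians; blue is Nodal and activin, red is BMP and Id partners, dark grey is TGF-beta) in 3 comparisons; the grey band spans the middle 90% of all genes kept, and Nog is drawn at its lower bound. The lists spread in both directions from Day0 to Nons, and with the hairpins points far to the right include T and Fgf8 with Smarca4.6 and Inhbb with Smarca4.4.

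Over the 3 differences together (Nons from Day0, and each hairpin from Nons), the 5 genes whose values were nearest to those of Nodal were Kdm6b, Klhl20, Gm15792, Gm20517 and Cdc45, at Euclidean distances of 0.041 to 0.052. For Id1 they were Gja1, Rgs11, Trim5, Cav2 and Samd4, at distances of 0.19 to 0.25. A distance over 4 libraries, with 3 differences that share Nons, is only a description. None of the 10 members was among the nearest of Nodal or Id1, which says little, since only 5 of 13264 genes were taken for each.

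RefSeq promoter windows (GRCm38.p6, 250 bases before and 50 after the start site) were matched for Nodal, Tdgf1, Bmp4, Id2 and Id3. For Id3, the 250 bases before the start site lie wholly in exon sequence of GENCODE, so they are not upstream of the annotated gene. The windows were searched on both strands for GGCGCC and GTCTAGAC, motifs linked to Smad binding in BMP target genes and in general, and for CAGACA with its complement TGTCTG, a form of the Smad box. Of the 5 windows, only that of Id2 held a match, to GGCGCC, which 11.9% of 32851 windows hold. It lies 231 bases before the RefSeq start site. GENCODE has a longer Id2 transcript, which begins at position 25097140 and puts 161 exon bases into this window, so the match lies inside the annotated gene, between exons of that transcript. It is in the following stretch at chr12:25096306-25096335 (minus strand), shown with the motif in capitals because Id2 has the second largest difference from Day0:
Id2: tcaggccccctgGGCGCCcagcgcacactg
GTCTAGAC occurs in 0.213% and CAGACA or TGTCTG in 21.0% of all windows, and in 0 of these 5. A match is a description and not a binding site.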

How the data were processed

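RNA-seq of 4 libraries was analysed. Per the submitters' processing notes and the study's methods, reads were converted with bcl2fastq, trimmed, aligned with HISAT2 to mm10 (the methods also name tophat) with strain-variable positions masked, and counted over exons in SeqMonk. The strand setting is not given in the sources used here, so reads of antisense genes may be mixed. The deposited values are log2 CPM made by the authors, with both alleles combined and 1 column for each library.

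Back-transformed values were whole multiples of 1 read (100% of those up to 1000 reads, tolerance 0.02), with 0 reads written as 0.9 read, which gave reads and totals. The floor is 3 reads. Differences were taken between deposited log2 CPM values of genes with a mean of at least 0, and counted at 2-fold and 1.5-fold. No count model was run, since each group holds 1 library. RPKM used the union of exons in GENCODE M21 (GRCm38, the same assembly as mm10). Intervals and floors hold counting error alone: amplified reads are not separate molecules.

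The named genes are the 10 members, Smarca4, the list genes at least 2-fold different between Nons and Day0 (3 largest in each direction) or at least 1.5-fold different from Nons with both hairpins in 1 direction, the 5 nearest patterns of Nodal and Id1, and marker genes at 0 reads or of the highest level. T, Fgf8, Inhbb, Fst, Pcsk6, Bmp8a, Gata3 and Id4 with single hairpins, and Otx2 with both, were described after their values were seen. So were Gsc, Mixl1, Bmp2, Gdf6, Smad9, Bmpr1b, Cdx2, Myl9, Col1a1 and the Y-linked genes. The values of 1 list gene are not reported here. Members and lists were chosen with earlier results of these data known. Alternatives were another pseudocount, scaling, filter, summary, side membership, Lefty pooling and gene length. The interval steps were tested on simulated reads. Tables were handled in pandas 2.3.3 and numpy 2.4.6 under Python 3.11.15, intervals came from scipy 1.17.1 and figures from matplotlib 3.10.9.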

Additional observations from a re-analysis of the deposited data

How the results depend on the processing

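Of 128 alternative values for single genes, 112 moved by less than their counting interval, 16 moved by more and 0 reversed a called value. The Lefty pair summed gave differences of -2.71 from Day0 to Nons and 0.35 with Smarca4.6, and -0.17 between the hairpins, where Lefty1 alone had 0.14. Id3 between the hairpins went from -0.037 to 0.0022 with size factors. With log2(CPM + 1) the Day0 to Nons difference of Id1 was 5.33. For the side medians, the Nodal side from Day0 to Nons was -2.17 without Smad7 and -1.03 with the Lefty genes summed, and the BMP side was 5.05 when only genes with a mean of at least 3 were kept, a filter that removes Bmp4. Under that filter the BMP side was -0.021 with Smarca4.4, -0.037 with Smarca4.6 and 0.016 between the hairpins, so that without Bmp4 its medians were near 0. Its mean was -0.026 with Smarca4.4 and -0.24 with Smarca4.6, and its median with size factors was -0.42 with Smarca4.6. The other 39 of 48 alternative medians moved by less.

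Counts over all genes depend on the filter. With the filter at 3, and then with none, the genes at least 2-fold different numbered 2230 and 15359 from Day0 to Nons, 18 and 2265 with Smarca4.4, 38 and 2289 with Smarca4.6, and 7 and 2003 between the hairpins. At 1.5-fold they numbered 4147 and 18349, 215 and 3934, 435 and 4358, and 97 and 3576. With log2(CPM + 1) they were 44, 76 and 18 at 2-fold and 451, 747 and 245 at 1.5-fold in the last 3 comparisons. With Smarca4.6, 753 genes were higher and 508 lower by 1.5-fold, against 579 and 645 when centred and 554 and 687 with size factors; at 2-fold the split was 136 and 106, against 103 and 135 and 99 and 142. With the longest transcript as length, 5 of 10 genes kept their rank in Smarca4.4 and 6 of 10 in Smarca4.6. No library could be left out, since each is the only one of its group. No paired analysis was possible because a group is 1 library here and all 4 carry the number 3. Depth limits Id1 at Day0 most, with 16 reads.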
